A study of Mus musculus with 4 samples.

Results

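Icam1, Vcam1, Il6, Ccl2, Cxcl10, Il1b, Nfkbia and Ptgs2, genes for adhesion molecules and inflammatory mediators, were followed in RNA of exosomes, the small vesicles that cells release into their medium. They were taken by symbol from the deposited gene table, and all 8 were found among its 42977 genes. They were picked by symbol and function, with no threshold on a measured value but with earlier results of these data known. The vesicles came from bone marrow mesenchymal stem cells (MSCs) of male SD rats aged 6 to 8 weeks, grown to passage 3 or 4. The labels describe both ultracentrifugation and a commercial reagent for isolating the vesicles from conditioned medium. The MSC-Exo group comprised 2 libraries of DMSO-treated cells, DMSO being the solvent, and the MSCATV-Exo group comprised 2 of cells pretreated with 1 µmol/L atorvastatin (ATV), a statin that blocks cholesterol synthesis. The length of the pretreatment is 24 h in the sample characteristics and 48 h in the treatment protocol. The labels do not say whether the libraries of a group came from separate animals or cultures. No SD, SE, interval or p-value below therefore speaks for animals or cultures beyond these libraries. Each SD is the spread between the libraries of a group. The SE, interval and p-value of a fitted fold change also draw on the spread of the other tested genes. Intervals of single counts cover counting error only. The samples are registered as mouse, whereas the protocol, the build and the gene identifiers are of rat. The comparison asked whether vesicle RNA of these genes differed with the statin.

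These genes are textbook outputs of the NF-κB pathway. In resting cells the inhibitor encoded by Nfkbia holds NF-κB in the cytoplasm. When cytokines such as interleukin 1 beta signal, that inhibitor is degraded and NF-κB enters the nucleus and switches on adhesion molecules, chemokines, interleukin 6, Ptgs2 and Nfkbia itself, which closes the loop. In bone marrow stroma these products steer leukocyte traffic and the response to injury, and vesicle RNA is a sample of the cell's transcripts rather than a direct measure of their level in the cell.

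The gene counts summed to 5350295 to 5947020 per library, and where no read was counted up to 3 counts remain possible at a one-sided level of 95%, which is 0.504 to 0.561 CPM (counts scaled to a fixed library total). The two-sided 95% Poisson interval of a count of 0, used in the plot of levels, reaches 3.69 counts. Copies made by PCR cannot be told from separate molecules here, so this floor covers counting error only. Levels between genes are compared below as RPKM, reads scaled by gene length and by library total. Olfactory receptor genes, a class of 1189 genes that such cells are not known to use, gave a reference for low levels. Their median was 2.48 and 2.36 RPKM in MSC-Exo replicates 1 and 2, and 1.71 and 2.28 RPKM in MSCATV-Exo replicates 1 and 2. Protein-coding genes as a whole had medians of 4.12 to 4.74 RPKM. Of 10 MSC markers, 5 had a mean RPKM above 3 times the olfactory receptor median. Among these, Vim lay at 187 to 225 RPKM, Col1a1 at 27.8 to 41.9 RPKM and Thy1 at 14.7 to 24.2 RPKM. The markers Eng, Pdgfrb, Nt5e and Cd44 did not reach that multiple, with means of 7.52, 6.02, 4.09 and 3.53 RPKM. Col1a2, a collagen gene of these cells, and Hprt1, which cells in general express, were listed at 0 in all 4 libraries, so a listed 0 is not read here as absence.

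None of the 7 genes that were tested passed the test, and Il6 fell under the filter on low counts. Vcam1 and Cxcl10 had their higher values in the MSC-Exo libraries and their lower values in the MSCATV-Exo libraries, without overlap. The other 6 genes overlapped between the groups in normalised CPM, which are counts scaled to a common library size. Of all tested genes, 17.4% had separated groups with the lower values in MSCATV-Exo, and among the 8 it was 2. Levels were low throughout. They ran from 0 to 10.4 RPKM over the 32 library values, of which 10 lay under the olfactory receptor median of the same library and 6 lay above 3 times that median. Icam1, with the highest mean (6.86 RPKM), was the 1 gene above the protein-coding median in every library.

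**Figure D1:**
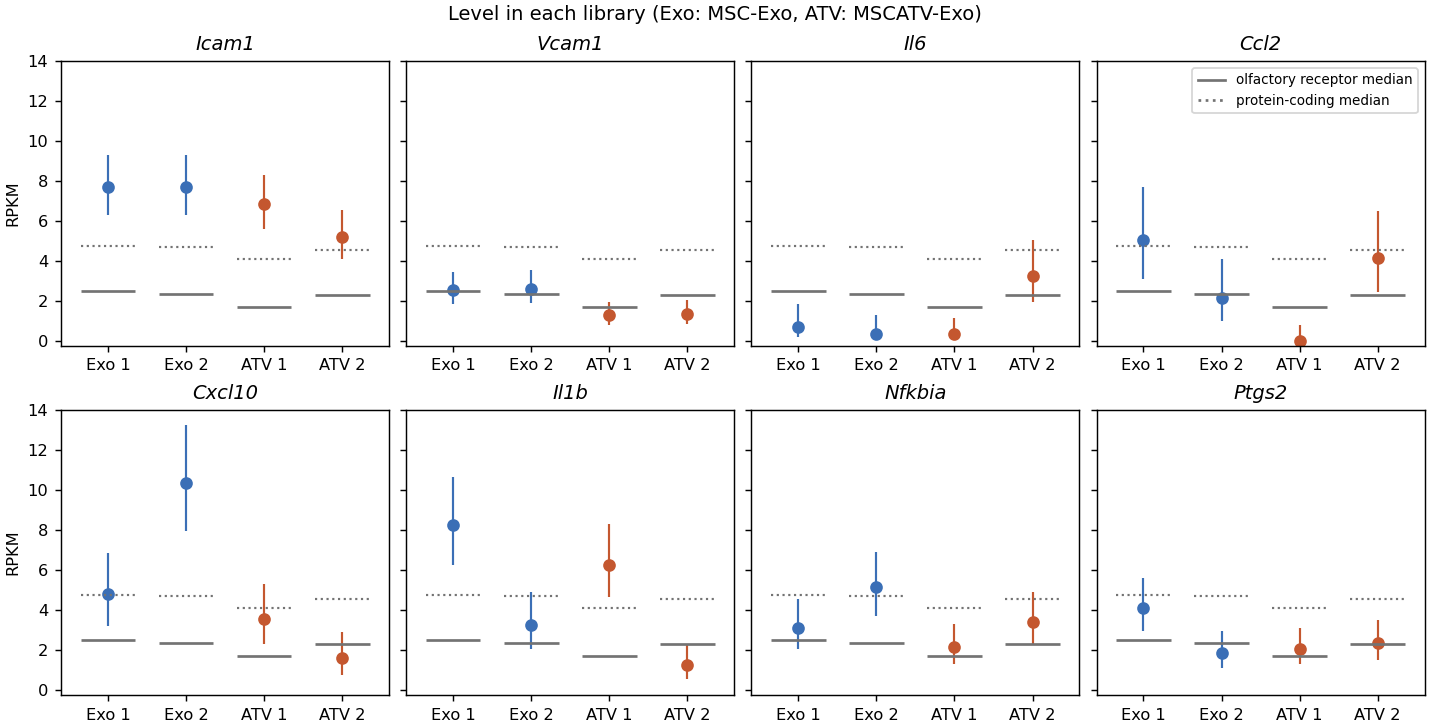
RPKM (vertical axis) of each gene in MSC-Exo replicates 1 and 2 (Exo, blue) and MSCATV-Exo replicates 1 and 2 (ATV, orange), with vertical lines for the exact 95% Poisson interval of the count, which covers counting error only. Grey solid and dotted lines give the medians of olfactory receptor and protein-coding genes in the same library. Icam1 stays between 5.22 and 7.69 RPKM, while Il1b runs from 1.22 to 8.25 RPKM and Ccl2 from 0 to 5.03 RPKM.

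Icam1 encodes a cell-surface protein that leukocyte integrins bind during firm adhesion. The gene table places it on chromosome 8, 22035287 to 22047049, plus strand (rn6 here and below), with a listed length of 2602 bases. Its counts were 107 and 107 in the MSC-Exo libraries and 106 and 76 in the MSCATV-Exo libraries. The first 3 libraries were nearly equal and MSCATV-Exo replicate 2 stood below them. In normalised CPM the means were 19.4 ± 0.190 (SD, n = 2) and 16.5 ± 4.14, and the groups overlapped. In RPKM, which uses no scaling factor, the values were 7.69 and 7.68 against 6.85 and 5.22, without overlap. Separation of this kind, lower in MSCATV-Exo, held in RPKM for 20.9% of all tested genes and for 3 of the 8. Relative to the olfactory receptor median of the same library Icam1 stood at 3.11 and 3.25 in MSC-Exo and at 4.01 and 2.29 in MSCATV-Exo, again with overlap.

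Vcam1 encodes the adhesion molecule bound by the integrin of Itga4 and Itgb1, and stromal cells use it to hold blood progenitors in the marrow. Its place is chromosome 2, 219071193 to 219090931, minus strand. Reads numbered 41 and 42 in the MSC-Exo libraries and 23 and 23 in the MSCATV-Exo libraries, and over both groups its replicates were the closest of the 8 genes. The means were 7.53 ± 0.202 and 4.16 ± 0.0767 normalised CPM (SD, n = 2), a 1.81-fold lower mean in MSCATV-Exo. The counting error alone is much wider than these SDs. A count of 41 has an exact 95% Poisson interval of 29.4 to 55.6, and a count of 23 one of 14.6 to 34.5. These intervals of single libraries overlap, which cannot decide whether counting error covers the difference between the groups. No interval was computed for the group sums of 83 and 46 counts. The level itself was close to that of olfactory receptor genes, at 1.03 and 1.10 times their median in MSC-Exo and 0.753 and 0.601 times in MSCATV-Exo. Vcam1 was the 1 gene of the 8 that remained separated on this ratio. The share of all tested genes separated on it was not computed, so this does not set Vcam1 apart from genes at large.

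Ccl2 encodes a chemokine that draws monocytes through the receptor Ccr2. On chromosome 10, 69412065 to 69413863, plus strand, it is at 780 bases the shortest of the 8 genes. Its counts were 21 and 9 in the MSC-Exo libraries and 0 and 18 in the MSCATV-Exo libraries, so the MSCATV-Exo libraries lay on either side of MSC-Exo replicate 2 and the groups overlapped. With the floor of 3 counts, the 0 in MSCATV-Exo replicate 1 allows up to 0.647 RPKM, against 4.12 RPKM in replicate 2 of the same group.

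Cxcl10 encodes an interferon-induced chemokine for T cells that carry the receptor Cxcr3. Its listed span is chromosome 14, 17210733 to 17212930, plus strand. Its counts were 29 and 63 in the MSC-Exo libraries and 24 and 10 in the MSCATV-Exo libraries. MSC-Exo replicate 2 was the highest and MSCATV-Exo replicate 2 the lowest. The means were 8.36 ± 4.44 and 3.09 ± 1.85 normalised CPM (SD, n = 2), a 2.71-fold lower mean in MSCATV-Exo. The replicates differed by 2.20-fold within MSC-Exo and 2.46-fold within MSCATV-Exo, nearly as much as the group means. The gap between the nearest libraries of the groups was small, with 5.22 CPM in MSC-Exo replicate 1 and 4.39 CPM in MSCATV-Exo replicate 1. Against the olfactory receptor median of each library the values were 1.93 and 4.39 in the MSC-Exo libraries and 2.08 and 0.692 in the MSCATV-Exo libraries, and on that ratio the groups overlapped. The listed span of Art3 on the other strand (66 and 24 counts in the MSC-Exo libraries, 65 and 110 in the MSCATV-Exo libraries) encloses Cxcl10. The library kit named in the labels does not mark the strand, so reads of such a pair cannot be told apart where exons overlap.

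Il6 encodes interleukin 6, a cytokine that MSCs are known to secrete. It lies on chromosome 4, 3043231 to 3047807, plus strand, inside the listed span of Kmt2c on the same strand. Kmt2c had 232 and 305 counts in the MSC-Exo libraries and 229 and 301 in the MSCATV-Exo libraries. Where exons of both genes overlap, their reads cannot be told apart. The counts of Il6 were 4 and 2 in the MSC-Exo libraries and 2 and 19 in the MSCATV-Exo libraries. MSCATV-Exo replicate 2 was the highest, and the other 3 libraries lay at or near the floor of 3 counts. The other MSCATV-Exo library, at 0.322 RPKM, lay at the level of MSC-Exo replicate 2 (0.357 RPKM). Il6 did not pass the filter on low counts and had no test on all 4 libraries with that filter. It had the lowest mean level of the 8, at 1.16 RPKM.

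Il1b encodes interleukin 1 beta, a cytokine made mainly by myeloid cells. On chromosome 3, 121876256 to 121882637, minus strand, it is listed with 1314 bases. Its counts were 58 and 23 in the MSC-Exo libraries and 49 and 9 in the MSCATV-Exo libraries. Replicate 1 was high and replicate 2 low in both groups, and the groups overlapped. The replicates differed by 2.49-fold in MSC-Exo and 5.59-fold in MSCATV-Exo, while the group means, 7.32 ± 4.42 and 5.29 ± 5.21 normalised CPM (SD, n = 2), differed by 1.39-fold. For tested genes whose mean CPM lay within 2-fold of that of Il1b, the median fold between replicates was 1.72 in MSC-Exo and 1.88 in MSCATV-Exo, so Il1b varied more between replicates than the median gene of its level. For Vcam1 the corresponding medians were 1.75 and 1.94, against its own 1.04 and 1.03.

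Nfkbia encodes the NF-κB inhibitor IκBα. It lies on chromosome 6, 76267227 to 76270457, minus strand, and its listed span overlaps the end of the lncRNA LOC108351237 on the other strand (49 and 51 counts in the MSC-Exo libraries, 24 and 53 in the MSCATV-Exo libraries). The counts of Nfkbia were 26 and 43 in the MSC-Exo libraries and 20 and 30 in the MSCATV-Exo libraries, with overlap between the groups. Its means were 6.27 ± 2.24 and 4.50 ± 1.19 normalised CPM (SD, n = 2). In RPKM it stayed at 1.25 to 2.17 times the olfactory receptor median.

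Ptgs2 encodes cyclooxygenase-2, the inducible enzyme that starts prostaglandin synthesis. The gene sits on chromosome 13, 67351230 to 67356920, plus strand. Its counts were 40 and 18 in the MSC-Exo libraries and 22 and 24 in the MSCATV-Exo libraries. The MSCATV-Exo libraries lay between the MSC-Exo libraries and were close to each other (1.06-fold apart, against 2.19-fold in MSC-Exo). The means were 5.24 ± 2.77 and 4.15 ± 0.179 normalised CPM (SD, n = 2).

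The order of the levels was not stable. By RPKM the highest of the 8 was Il1b in MSC-Exo replicate 1, Cxcl10 in MSC-Exo replicate 2 and Icam1 in both MSCATV-Exo libraries. Il1b, first in MSC-Exo replicate 1, was last in MSCATV-Exo replicate 2, and Ccl2, second in that library, was last in MSCATV-Exo replicate 1. By mean RPKM over the 4 libraries the order ran from Icam1 (6.86) through Cxcl10 (5.07), Il1b (4.75), Nfkbia (3.45), Ccl2 (2.83), Ptgs2 (2.59) and Vcam1 (1.95) to Il6 (1.16). The library values of every pair of neighbours in this order overlapped. The summed RPKM of the 8 genes was 36.2 and 33.4 in the MSC-Exo libraries and 22.5 and 22.5 in the MSCATV-Exo libraries, in the same libraries in which the olfactory receptor median was 2.48 and 2.36 against 1.71 and 2.28.

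The edgeR quasi-likelihood test on the whole gene table gave log2 fold changes of MSCATV-Exo over MSC-Exo for the 7 genes that passed the filter, which asks for about 10 counts in at least 2 libraries. All of these 7 estimates were below 0, with a median of -0.47, while 50.6% of the 33480 tested genes were below 0, with a median of -0.01. Cxcl10 had the largest estimate at -1.43 ± 0.96 (SE), followed by Vcam1 at -0.85 ± 0.86 and Ccl2 at -0.75 ± 1.91. Nfkbia (-0.47 ± 0.92), Il1b (-0.47 ± 1.00), Ptgs2 (-0.34 ± 1.02) and Icam1 (-0.24 ± 0.45) were nearer to 0. Only the estimate of Cxcl10 exceeded its SE.

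None of the 7 had an edgeR adjusted p under 0.05 (0% of all tested genes did), and none had an unadjusted p under 0.05, which 3.69% of all tested genes had. Their unadjusted p ran from 0.164 for Cxcl10 to 0.748 for Ptgs2, and the adjusted p was 1.00 for each. DESeq2, which called 0.329% of genes, called none of the 7 either, with the smallest adjusted p of 0.757 at Cxcl10. The test does not show that the groups are alike. The 95% interval for Cxcl10, -3.55 to 0.69, holds 11.8-fold lower and 1.62-fold higher levels, and that for Vcam1 runs from -2.76 to 1.05. The narrowest interval, that of Icam1, is -1.23 to 0.76, which spans 2.34-fold lower to 1.69-fold higher levels.

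**Figure D2:**
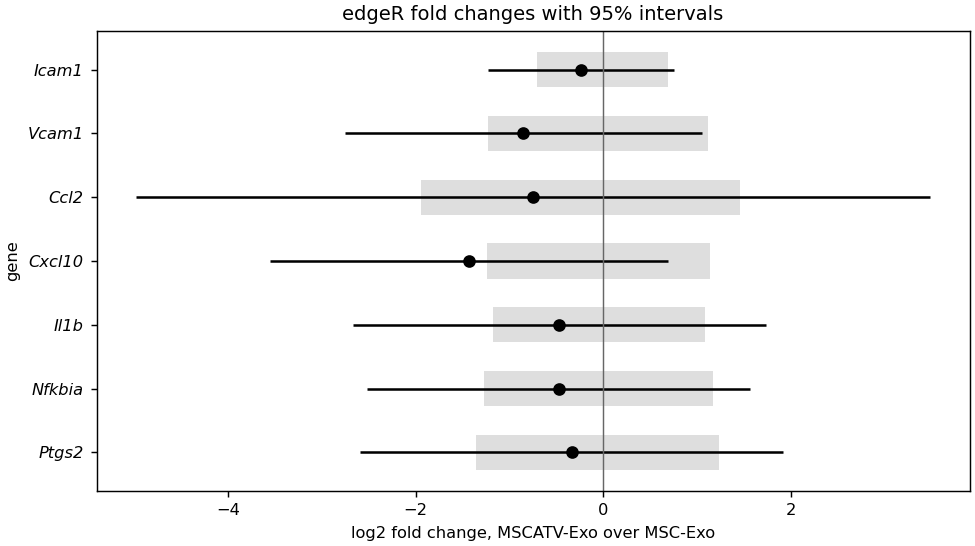
Log2 fold change of MSCATV-Exo over MSC-Exo (horizontal axis) for the 7 tested genes, with points for the edgeR estimates and lines for their 95% intervals. Grey bars hold the 10th to the 90th percentile of the fold changes of tested genes with a mean CPM within 2-fold of that gene. All 7 intervals hold 0, and only the point of Cxcl10 lies outside its grey bar.

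The estimates of genes of like abundance give a scale for these values. For tested genes with a mean CPM within 2-fold of that of Cxcl10, the 10th and 90th percentiles of the log2 fold change were -1.24 and 1.13, and Cxcl10 at -1.43 lay outside them. For genes at the level of Vcam1 they were -1.23 and 1.12, and Vcam1 at -0.85 lay inside. At the level of Icam1 they were -0.70 and 0.69, and Icam1 at -0.24 lay inside. The other 4 tested genes also lay inside the range of their level.

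With single libraries left out, Vcam1 and Cxcl10 held their sign and several others did not. The log2 fold change of Vcam1 moved only between -0.89 and -0.82, and that of Cxcl10 between -2.22 and -0.75, the latter without MSC-Exo replicate 2. Nfkbia stayed below 0 but came to -0.05 without MSC-Exo replicate 2. Il1b turned to 0.32 without MSC-Exo replicate 1 and to 0.30 without MSCATV-Exo replicate 2. Ptgs2 turned to 0.33 without MSC-Exo replicate 1 and Ccl2 to 0.24 without MSCATV-Exo replicate 1, the library in which it was listed at 0. Without MSCATV-Exo replicate 2 the lone MSCATV-Exo library of Ccl2 stood at that 0, and the fitted -6.91 gives no size. Icam1 came to 0.00 without MSCATV-Exo replicate 2. With a lone library in a group, that library is assumed to vary like the others.

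**Figure D3:**
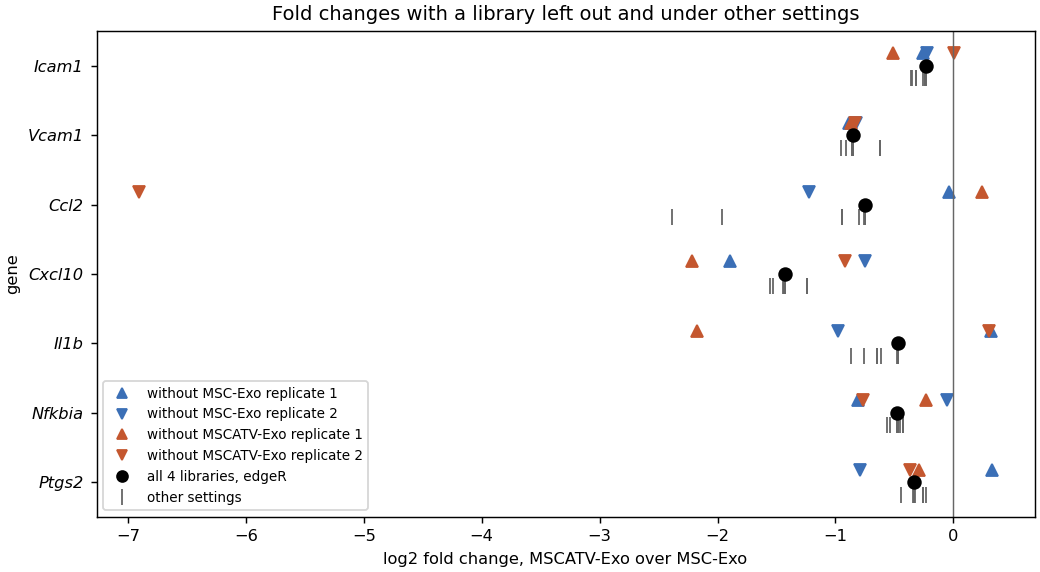
Log2 fold change of MSCATV-Exo over MSC-Exo (horizontal axis) for the 7 tested genes with all 4 libraries (black points), with a library left out (triangles, coloured by the group that lost a library) and under the 9 other settings (grey ticks). Vcam1 stays within -0.96 to -0.62 under every setting shown, while Il1b runs from -2.17 to 0.32.

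Il6, which the filter left without a test, pointed the other way where it was fitted, and each of those fits held MSCATV-Exo replicate 2, its 1 high library. Without a filter on low counts its log2 fold change was 1.75 (edgeR adjusted p = 1.00), and with limma on log2(RPKM + 1) it was 0.63.

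In the authors' deposited table, whose underlying test is not stated, Cxcl10 (q = 0.000633) and Vcam1 (q = 0.0275) had a q under 0.05. There, 21.9% of genes have a q under 0.05 with the lower level in MSCATV-Exo, against 2 of the 8 genes. The authors' deposited table gives q values of 0.163 to 0.410 for the other 6 genes, among them 0.163 for Il6 and 0.188 for Icam1.

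The receptors and partners of these genes pointed in both directions. Of 14 chosen for their direct contact with the 8 genes or their products, Ccr2 was not found under its symbol and 13 were tested. Among the integrins that bind Icam1, Itgal lay at 9.46 and 10.4 RPKM in the MSC-Exo libraries and 9.41 and 6.70 in those of MSCATV-Exo, and Itgb2 at 7.86 and 5.26 against 3.56 and 6.61. Their log2 fold changes were -0.19 ± 0.33 and -0.28 ± 0.48 (SE), with overlapping groups. For the partners of Vcam1, Itga4 stood at 2.65 to 2.74 RPKM in all 4 libraries. Itgb1, an integrin chain that MSCs carry in quantity, was at 26.9 and 30.8 RPKM against 31.3 and 35.7, higher in both MSCATV-Exo libraries (log2 fold change 0.32 ± 0.23, SE). This was the opposite direction to that of Vcam1, but such separation in normalised CPM held for 16.1% of all tested genes.

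The interleukin 6 receptor Il6r was lower in both MSCATV-Exo libraries, at 6.00 and 4.10 RPKM against 2.62 and 3.99 (log2 fold change -0.52 ± 0.36, SE). Separation in this direction in normalised CPM held for 17.4% of all tested genes. The signalling chain Il6st was at 0.05 ± 0.37 and the interleukin 1 receptor Il1r1 at 0.14 ± 0.32. Il1rn, which encodes the antagonist of that receptor, was at -0.44 ± 0.49, and Cxcr3, the receptor of Cxcl10, had 12 and 12 counts against 18 and 40 (1.25 ± 1.21). Of the NF-κB subunits that IκBα binds, Rela had a log2 fold change of 0.02 ± 0.40 and Nfkb1 one of -0.01 ± 0.38. Downstream of Ptgs2, the synthase Ptges was at 0.09 ± 0.84 and the prostaglandin receptor Ptger4 at 0.40 ± 0.36. By edgeR the unadjusted p of the 13 ran from 0.181 to 0.976, and none passed after adjustment.

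Wider lists of the pathway held genes of both directions. Of 22 tested NF-κB core genes 10 were higher in MSCATV-Exo and 12 lower, and their median was -0.05 on the log2 scale. The most abundant of them by RPKM were Rela, Tnip1, which restrains NF-κB signalling (0.73 ± 0.37, SE), and Nfkbie, another inhibitor of the family (-0.57 ± 0.58). Of 25 tested cytokines and chemokines 13 were higher and 12 lower (median 0.09, and -0.02 with total-count scaling). Mif, a cytokine gene that many cells express, lay highest at a mean of 20.0 RPKM, followed by Tgfb1 at 9.68 and Cx3cl1 at 7.70 RPKM. Tnf was listed at 0 in all 4 libraries. Of 21 tested receptors 14 were higher (median 0.05, and -0.04 with total-count scaling), with Tnfrsf1a, the main tumour necrosis factor receptor, at 0.33 ± 0.41, Cxcr4 at 0.51 ± 0.56 and Tlr2 at -0.01 ± 0.43. Of 24 tested adhesion genes 10 were higher and 14 lower (median -0.12). Msn, which encodes the membrane-to-actin linker moesin, was among the 3 most abundant with 20.8 and 28.2 RPKM against 30.2 and 35.01 (0.51 ± 0.29), and Icam5, a relative of Icam1, was at -0.11 ± 0.33.

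Prostanoid genes had 12 of 18 higher (median 0.21). Ptgfr, the receptor of prostaglandin F2α, was the most abundant gene of this list at 69.8 and 57.7 RPKM against 62.4 and 76.2 (log2 fold change 0.22 ± 0.20, SE). It was followed by Ptges3, with 12.7 and 23.3 RPKM against 13.3 and 22.1, and Ptger1 (0.20 ± 0.32). Of 20 interferon response genes 8 were higher and 12 lower, and their median depended on the method. It was -0.04 by edgeR, -0.40 with the replicate block, and -0.34 and -0.49 with limma on log2(RPKM + 1) and log2(RPKM + 0.1). Under that last setting the 7 tested of the 8 genes ran from -2.39 (Ccl2) to -0.32 (Ptgs2), and Il6 was at 0.96. The 3 most abundant interferon response genes were Irf9 at -0.82 ± 0.44, Ifi27 at -0.35 ± 0.71 and Irf7 at -0.01 ± 0.53. Of 16 early response genes 10 were higher (median 0.13), with Junb at 0.56 ± 0.44, Egr1 at -0.12 ± 0.60 and Ier2 at 0.40 ± 0.57. By edgeR no gene of these lists passed. DESeq2, which called 0.329% of all genes, called 1 of 20 interferon response and 1 of 16 early response genes. The first was Ifih1, a sensor of viral RNA (99 and 181 counts against 34 and 43). Its DESeq2 adjusted p of 0.0492 was just under the threshold. The second was the growth regulator Myc (15 and 21 counts against 123 and 116). These were named after their values were seen. Housekeeping genes had 6 of 9 tested higher (median 0.24), with Gapdh at 0.24 ± 0.20, Actb at 0.24 ± 0.16 and Rplp0 at 0.48 ± 0.18 (SE), which DESeq2 called. In normalised CPM the groups were separated with the higher values in MSCATV-Exo for 16.1% of all tested genes. By list this held for 8 of 18 prostanoid, 7 of 21 receptor, 5 of 24 adhesion, 4 of 22 NF-κB core, 2 of 25 cytokine, 3 of 20 interferon response, 4 of 16 early response and 3 of 9 housekeeping genes. Separation with the lower values in MSCATV-Exo, at 17.4% of all tested genes, held in the same order for 1, 3, 6, 3, 4, 4, 2 and 0 genes.

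**Figure D4:**
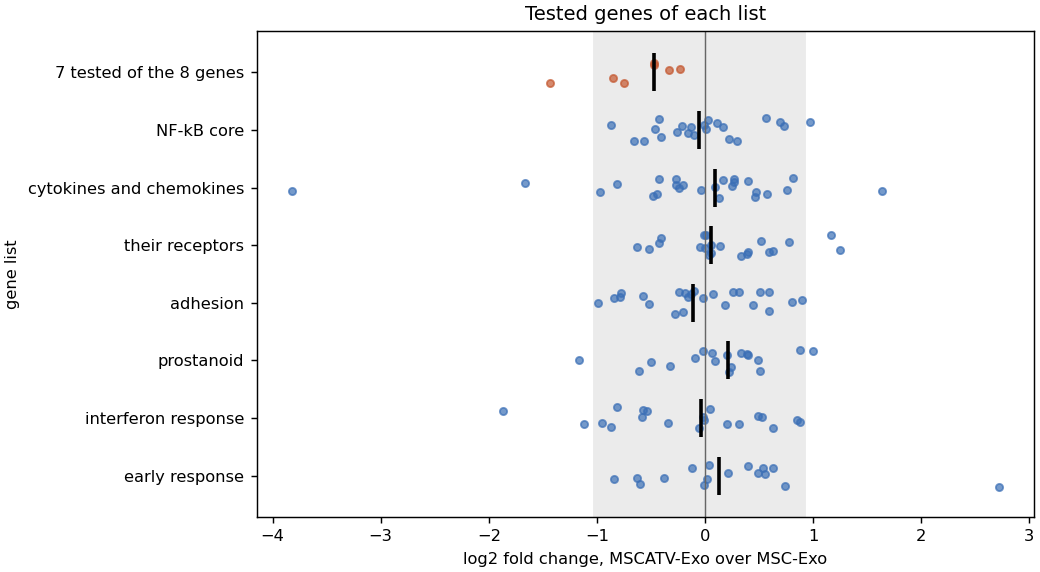
Log2 fold change of MSCATV-Exo over MSC-Exo (horizontal axis) for tested genes of each list (points), with black bars for the medians and a grey band for the 10th to the 90th percentile of all tested genes, -1.03 to 0.92. The 7 tested of the 8 genes centre on -0.47, and the edgeR medians of the 7 pathway lists lie between -0.12 and 0.21.

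Other levels differed between the same libraries. Markers of lymphocytes, cells that could be carried over in marrow cultures, had a summed 37.6 to 48.7 RPKM in MSC-Exo and 25.2 to 29.8 in MSCATV-Exo, and 7 of 8 were lower in MSCATV-Exo. Of these 8 markers only Ms4a1 was at 0 in any library, MSCATV-Exo replicate 1 (Cd3e, a marker of T cells, had 26 and 87 counts against 18 and 62). Neutrophil markers summed to 38.8 to 40.4 RPKM against 23.5 to 34.9, with 3 of 5 tested genes lower. Macrophage and monocyte markers, the main known source of Il1b, summed to 53.9 to 56.8 RPKM against 54.0 to 63.5, with 5 of 12 lower. Endothelial markers, of cells that display Icam1 and Vcam1, summed to 38.3 to 45.6 RPKM against 37.9 to 43.4, with 4 of 8 lower. No marker of these 4 cell types was at 0 in every library. A count alone does not show a cell type, because 64.8% to 79.1% of olfactory receptor genes, depending on the library, had a count too. No marker of the 4 cell types had a mean RPKM above 3 times the median of olfactory receptor genes, a multiple that 5 of the 10 MSC markers passed. The part of these cell types, and of the lower olfactory receptor median, in the values of the 8 genes was not tested. In bulk vesicle RNA fewer vesicles of a cell type and less RNA per vesicle cannot be told apart.

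The genes whose pattern over the 4 libraries was most like that of Icam1 were Pde12, Zscan10 and Tmc7. Likeness was the Euclidean distance between centred log2(normalised CPM + 1) values, among 10676 tested genes with a mean CPM within 2-fold of Icam1. The distances were 0.03, 0.06 and 0.08 on the log2 scale. Pde12, for example, had 79 and 81 counts in the MSC-Exo libraries and 80 and 57 in the MSCATV-Exo libraries. With 4 libraries and so many candidates, close matches are a description only.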

How the data were processed

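RNA sequencing of exosomes was deposited for 2 MSC-Exo and 2 MSCATV-Exo libraries. The submitters' processing notes name TopHat2 and the rat build rn6 (Rnor_6.0). The read counter and annotation release are not given in the sources used here. The values deposited are whole-number counts of reads for each gene and, beside them, RPKM values, which equal counts over listed length and the table's total. The authors' deposited comparison table gives group mean RPKM, a log2 ratio of those means, and a p-value and q-value.

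The main test was the two-sided quasi-likelihood test of edgeR 4.0.16 (R 4.3.3) after filterByExpr with TMM scaling, and p-values were adjusted by Benjamini-Hochberg over 33480 genes (threshold 0.05). SE and 95% intervals come from that fit, in which the spread of each gene is moderated by that of the other tested genes. Alternatives used DESeq2 1.42.0, limma 3.58.1, other scalings and filters, the replicate block, and each library left out. Over all tested genes the median log2 fold change was -0.01 with TMM and -0.11 without. Genes and lists were chosen with earlier results of these data known. The genes named were the 8, 14 direct partners, and the 3 most abundant by RPKM in each pathway list. Some markers of cell types were named as well. The non-coding transcript tables and the mouse reference tables were not used here, and no sequence is printed.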

Additional observations from a re-analysis of the deposited data

How the results depend on the processing

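None of the 7 tested genes was called under any of the 13 alternatives, nor was Il6 in the 8 of them that gave it a value. The count of all genes called, 0 by edgeR, was 8 without a filter on low counts, 106 with DESeq2, 4 with the replicate block and 1 to 168 with a library left out (168 without MSCATV-Exo replicate 2). The number of the 8 genes lower in MSCATV-Exo was 7 under every alternative on all 4 libraries and 5 to 7 with a library left out. With a library left out the log2 fold change ranged from -0.52 to 0.00 (0.00478) for Icam1, -6.91 to 0.24 for Ccl2, -2.17 to 0.32 for Il1b (0.30 without MSCATV-Exo replicate 2) and -0.79 to 0.33 for Ptgs2. All 5 sign changes came with a library left out. Deviations of same-numbered libraries from their group means had a correlation of -0.00405 over 33480 genes. Counting error at low counts pulls such a correlation towards 0, so it cannot decide whether the replicates were paired. With the replicate block Ccl2 was at -1.96, Cxcl10 at -1.44 and Vcam1 at -0.85. Limma on log2(RPKM + 0.1) put Ccl2, listed at 0 in 1 library, at -2.39. Counts of 0 to 107 per gene and library limit every comparison of the 8 genes. The list medians ran, with a library left out, from -0.14 to 0.13 for NF-κB core genes, -0.16 to 0.12 for cytokines, -0.09 to 0.41 for receptors, -0.25 to 0.08 for adhesion and -0.27 to 0.12 for interferon response genes. The interferon response median also came to -0.40 with the replicate block, -0.34 with limma on log2(RPKM + 1), with or without a filter, and -0.49 with limma on log2(RPKM + 0.1), and the cause was not tested. The medians of prostanoid (0.07 to 0.32), early response (0.15 to 0.61) and housekeeping genes (0.09 to 0.42) stayed above 0. With total-count scaling the early response median was 0.02.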
